A study of Mus musculus with 96 samples.

Results

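The fetal liver of wild-type (WT) mouse embryos at E11.5 (embryonic day) was compared with 7 other tissues of the same stage to describe the genes that set it apart. A gene was called liver-enriched when the lower of the male and female WT liver values lay at least 4-fold above the highest of the 14 WT values of the other tissues. The comparison was made on log2(FPKM + 1), and FPKM is a fragment count per gene that has been corrected for transcript length and library depth. By this rule 280 genes were liver-enriched, out of 28712 genes in the table. They were 1.76% of the 15922 genes above 1 FPKM in at least 1 group.

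Poly(A)+ RNA was sequenced from liver, lung, heart, pre-somitic mesoderm (PSM), forelimb, hindlimb, forebrain and midbrain, in 96 libraries of 32 groups. The WT liver accounts for 6 of them, 3 male and 3 female, and the other WT tissues for 42. WT embryos were on a C57BL/6J background, and both sexes were kept apart. A second genotype, ∆*Firre*, carried a deletion of the *Firre* locus, which produces a long noncoding RNA from the X chromosome; the floxed locus had been deleted in all tissues with a CMV-Cre that was later bred out. The ∆*Firre* allele had been backcrossed to C57BL/6J mice for 3 generations. Embryos came from *Firre*+/- mothers mated with WT or ∆*Firre* males. Since the locus is X-linked, WT females could come only from WT fathers and ∆*Firre* females only from ∆*Firre* fathers. In females, genotype and cross therefore cannot be told apart. The deposited table gives a single value for each group of 3 libraries, so the spread between libraries is unknown, no difference below was set against it and no p-value is given. In bulk tissue, fewer cells of a type and less RNA per cell cannot be told apart. The number of genes above 1 FPKM ranged from 12418 to 13318 over the 32 groups, and the WT livers had 12581 (male) and 12701 (female).

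At this stage the fetal liver consists of hepatoblasts, the precursors of hepatocytes and bile duct cells, and of blood cells that have begun to colonise it. Hepatoblasts secrete plasma proteins such as albumin, alpha-fetoprotein, clotting factors and lipid carriers, under transcription factors of the HNF4, FOXA and C/EBP families. The same organ is the main site of definitive haematopoiesis before birth, in which red cells with adult haemoglobin replace the primitive red cells made earlier in the yolk sac, next to megakaryocytes and granulocyte precursors.

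The promoters of 7 liver-enriched genes show the elements by which these programmes are usually recognised. They were chosen because they hold the motif, from a window of 250 bases before the RefSeq transcription start on GRCm38.p6, the assembly of mm10. The first 3 belong to plasma protein genes of the hepatoblast, and capitals mark a match to GTTAAT on either strand, a sequence known from promoters of liver genes. In the next pair, from erythroid transcription factor genes, capitals mark TGATAAG, the binding site of the GATA family. In the last pair, from granule protein genes of myeloid cells, capitals mark GAGGAAGT, an ETS-type site of the kind bound by PU.1. Each is written 5′ to 3′ on the strand of its gene.
Alb: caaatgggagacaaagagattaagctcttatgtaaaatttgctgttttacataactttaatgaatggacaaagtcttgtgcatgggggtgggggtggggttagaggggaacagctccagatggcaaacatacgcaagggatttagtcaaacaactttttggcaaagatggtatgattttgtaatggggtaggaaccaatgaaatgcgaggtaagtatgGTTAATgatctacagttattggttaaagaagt
Afp: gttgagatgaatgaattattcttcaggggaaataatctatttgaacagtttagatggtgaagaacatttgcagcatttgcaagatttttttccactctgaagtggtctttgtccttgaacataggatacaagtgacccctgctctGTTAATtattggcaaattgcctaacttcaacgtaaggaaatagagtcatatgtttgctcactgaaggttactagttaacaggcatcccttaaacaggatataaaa
Fgb: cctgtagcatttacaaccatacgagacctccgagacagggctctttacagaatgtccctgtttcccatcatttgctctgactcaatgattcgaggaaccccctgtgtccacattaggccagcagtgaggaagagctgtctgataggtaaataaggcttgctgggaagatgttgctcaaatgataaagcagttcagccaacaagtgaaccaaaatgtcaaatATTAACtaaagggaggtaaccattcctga
Gfi1b: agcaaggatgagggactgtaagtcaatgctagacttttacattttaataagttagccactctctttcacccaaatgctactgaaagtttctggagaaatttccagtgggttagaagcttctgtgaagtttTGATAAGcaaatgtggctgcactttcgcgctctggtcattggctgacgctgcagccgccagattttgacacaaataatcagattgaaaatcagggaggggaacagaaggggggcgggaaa
Klf1: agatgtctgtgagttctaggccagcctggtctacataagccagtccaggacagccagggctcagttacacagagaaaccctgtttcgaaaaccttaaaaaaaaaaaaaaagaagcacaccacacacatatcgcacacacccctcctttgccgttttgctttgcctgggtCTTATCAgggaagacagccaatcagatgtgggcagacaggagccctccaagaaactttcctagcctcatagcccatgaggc
Mpo: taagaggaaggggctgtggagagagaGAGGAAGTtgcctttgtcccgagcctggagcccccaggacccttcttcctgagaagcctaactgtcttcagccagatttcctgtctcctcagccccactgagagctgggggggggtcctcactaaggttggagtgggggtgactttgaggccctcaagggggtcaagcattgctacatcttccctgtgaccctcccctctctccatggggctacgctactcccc
Prtn3: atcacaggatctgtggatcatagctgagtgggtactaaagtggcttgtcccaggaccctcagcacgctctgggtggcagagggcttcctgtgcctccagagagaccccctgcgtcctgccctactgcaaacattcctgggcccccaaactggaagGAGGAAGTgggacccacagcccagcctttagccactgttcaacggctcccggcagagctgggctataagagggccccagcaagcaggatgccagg
These windows are chr5:90460620-90460869 (*Alb*, + strand), chr5:90490464-90490713 (*Afp*, + strand), chr3:83049864-83050113 (*Fgb*, - strand), chr2:28621983-28622232 (*Gfi1b*, - strand), chr8:84901732-84901981 (*Klf1*, + strand), chr11:87793534-87793783 (*Mpo*, + strand) and chr10:79879417-79879666 (*Prtn3*, + strand). The match began 32 bases before the start of *Alb*, 105 before that of *Afp* and 29 before that of *Fgb*. Of the 280 genes, 215 had a promoter in the RefSeq table. GTTAAT or its reverse was present in 36 of these (16.7%), in 6.52% of 27025 promoters in all and in 4.03% of those of genes above 1 FPKM. TGATAAG was present in 11 (5.12%, against 2.13% of all promoters) and GAGGAAGT in 10 (4.65%, against 2.44%). Among liver-enriched genes with a promoter in the table, GTTAAT occurred in 11 of 46 from the hepatocyte lists described below and in 0 of 16 from the blood lists. The 3 motifs share no overlapping letters in the windows shown, and a match describes the sequence only.

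The 4 markers of the hepatocyte lineage were liver-enriched, which matched the label of the tissue. *Alb*, which encodes albumin, stood at 1945 FPKM in WT male liver and 2114 FPKM in WT female liver. Its highest value elsewhere was 16.2 FPKM, in WT male lung, and in the 12 WT values outside liver and lung it did not exceed 0.0985 FPKM. *Afp*, the fetal counterpart of albumin, was the most abundant of the 280 genes, with 5353 FPKM in male and 5452 FPKM in female liver against 68.6 FPKM in WT male lung. The separation between the lower liver value and the highest other value, called the margin below, was 6.82 for *Alb* and 6.27 for *Afp* in log2(FPKM + 1). *Ahsg* (fetuin-A) had 78.2 and 70.3 FPKM in male and female liver and no more than 0.553 FPKM in any other WT value, a margin of 5.52. *Hnf4a*, the nuclear receptor that drives hepatocyte differentiation, had 38.9 and 34.1 FPKM and at most 0.532 FPKM elsewhere, a margin of 4.52.

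**Figure D1:**
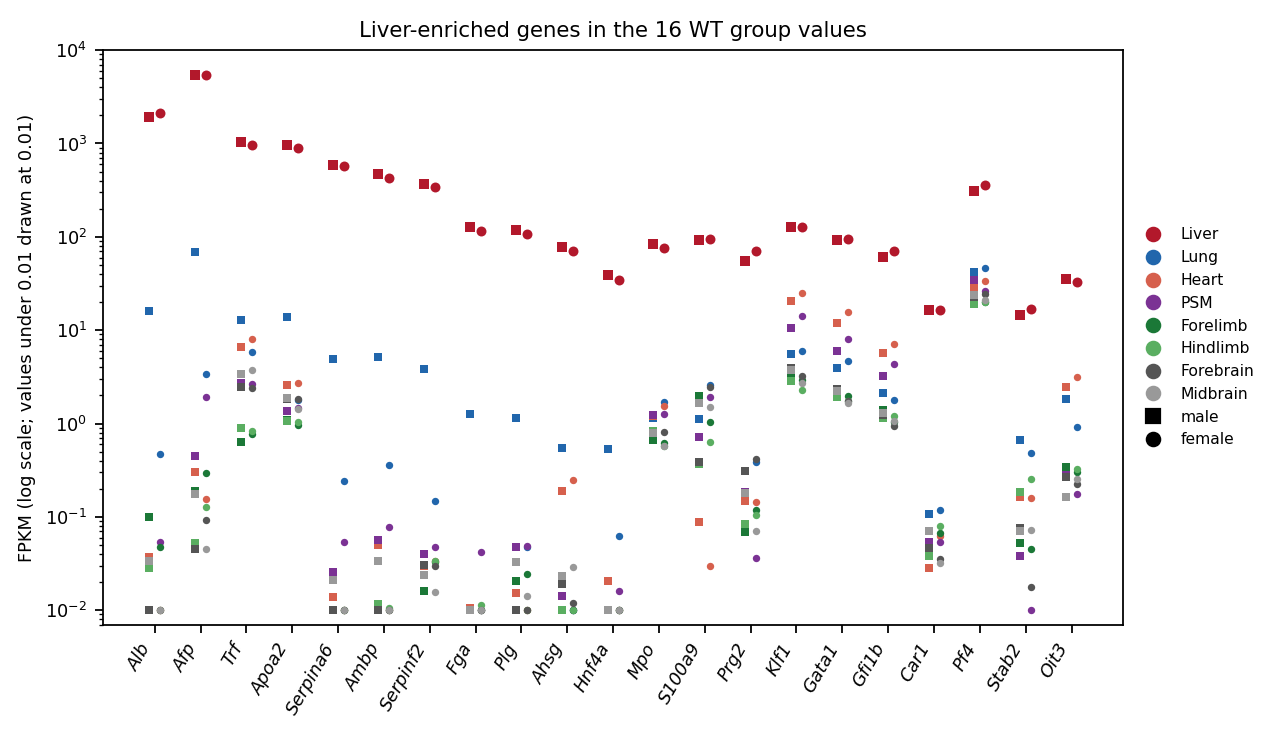
FPKM (log axis) of 21 liver-enriched genes in the 16 WT group values, with 1 point per tissue and sex and no error bars, since each point is a single value over 3 libraries. Liver points lie above every other tissue, male lung is the next highest for the plasma protein genes on the left, and heart is the next highest for *Klf1*, *Gata1* and *Gfi1b*.

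The 280 genes covered a wide range of levels. Their lower liver value ran from 3.29 to 5353 FPKM with a median of 16.6 FPKM, and 29 of them were above 100 FPKM in both WT livers. For 140 genes every other WT value was under 1 FPKM, and for 20 it was under 0.1 FPKM. The margin had a median of 2.78, where the median over all genes above 1 FPKM was -0.69. It reached 8-fold in 114 genes, 16-fold in 54, 32-fold in 25 and 64-fold in 8. Together the 280 genes held 3.97% of the summed FPKM in WT male liver and 3.91% in WT female liver, and between 0.08% (WT female hindlimb) and 0.187% (WT male lung) in the other WT tissues. By the same rule, 217 genes (1.36%) were enriched in WT heart and 24 (0.151%) in WT lung.

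The 15 largest margins all belonged to genes for secreted plasma proteins. After *Alb*, the list continued with *Serpina6* (corticosteroid-binding globulin), at 589 and 576 FPKM in male and female liver and a margin of 6.60. Protease inhibitors of the serpin family followed with *Serpina1b* (6.26) and *Serpina1a* (5.75), which encode alpha-1-antitrypsins, *Serpinf2* (6.15), which encodes alpha-2-antiplasmin, and *Serpinc1* (5.73), which encodes antithrombin. Carriers formed another group: *Trf* (transferrin, the iron carrier) had 1030.0 and 953 FPKM and a margin of 6.11, and *Rbp4* (the retinol carrier) had 695 and 718 FPKM and a margin of 6.10. *Ambp* (alpha-1-microglobulin and bikunin) had a margin of 6.12, and *Plg* (plasminogen) one of 5.65. In every one of the 15, the highest value outside the liver was that of WT male lung. The *Serpina1* genes are near-identical copies, and reads shared between them leave their separate values uncertain.

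Genes were then read by lists of known function, and the members of each list were counted. Of 19 hepatoblast markers, 17 were liver-enriched, and the median margin of the list was 5.52. In ∆*Firre* embryos, which did not enter the rule, 16 of the 19 passed the same rule, where 1.75% of all genes did. *Ttr* (transthyretin), chosen here after its values were seen, had its highest value outside the liver in the WT female forebrain, at 11.49 FPKM against 215 and 209 FPKM in male and female liver. The remaining 2 markers, *Cyp2d22* and *Fetub*, were not enriched, and *Fetub* was at 0.19 FPKM in male and 0.19 FPKM in female liver.

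Several transcription factors of the hepatocyte were shared with other tissues. Of 20 listed factors, 5 were liver-enriched, and the same 5 passed in ∆*Firre*, among them *Hnf4a*, *Creb3l3*, *Foxa3* and *Cebpa*. *Creb3l3*, a membrane-bound factor of lipid metabolism, had 9.6 and 9.1 FPKM and a margin of 2.96, and *Foxa3* had 11 and 9.11 FPKM and a margin of 2.90. The median margin of the list was -0.05, near the point where liver and the highest other tissue are equal. *Gata4*, which also specifies heart muscle, was the most abundant listed factor in liver, at 53.7 and 47.3 FPKM, and stood at 150.0 FPKM in WT male heart. *Foxa2*, which is shared by the liver and other gut-derived organs and was added after its values were seen, had 5.02 and 4.99 FPKM in liver and 12.4 FPKM in WT male lung.

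Clotting and lipid transport genes were among the lists with the most liver-enriched members. In coagulation and fibrinolysis, 14 of 21 genes were liver-enriched, and all 14 passed in ∆*Firre*. The median margin was 3.91, with *Serpinf2*, *Serpinc1* and *Fga* at the top. *Fga*, *Fgb* and *Fgg* encode the 3 chains of fibrinogen and had 126, 86.4 and 106 FPKM in male liver and 117, 84.2 and 97.4 FPKM in female liver, with *Fgb* the lowest in both sexes. *Pros1* (protein S) was at 11.9 and 12.8 FPKM in liver and at 13.1 FPKM in WT female lung, and was thus not separated. Of 17 apolipoprotein and lipid transport genes, 13 were liver-enriched, and 13 passed in ∆*Firre*. *Apoa2* had 972 and 900.0 FPKM and a margin of 5.94, *Apom* a margin of 5.73 and *Apoa1*, the main protein of high-density lipoprotein, 582 and 562 FPKM and a margin of 5.70. *Apoa4*, an intestinal apolipoprotein in the adult, was at 0.0142 FPKM in male and listed at 0 FPKM in female WT liver.

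Complement and the metabolic enzymes of the mature hepatocyte had smaller shares of liver-enriched genes than the clotting and lipid lists. Of 18 complement genes, 7 were liver-enriched (7 in ∆*Firre*), led by *C3*, the central component, with 78.7 and 72.2 FPKM and a margin of 5.18. *Cfb* and *Cfi*, which encode a protease of the alternative pathway and a protease that restrains complement, followed with margins of 4.41 and 4.26. Of 23 genes of mature hepatocyte metabolism, 6 were liver-enriched and 13 were under 1 FPKM in both WT livers. The enriched ones included *Bhmt* (methionine synthesis; 13.5 and 12.9 FPKM, margin 3.62) and *Otc* (urea cycle; 8.89 and 9.58 FPKM, margin 3.16). *Arg1*, the last enzyme of the urea cycle, was at 2.17 and 2.47 FPKM in liver and at 14.9 FPKM in WT male PSM. Among well-known genes of the adult liver, chosen after their values were seen, *Cps1* (the entry step of the urea cycle) had at most 0.0487 FPKM and *Cyp2e1* at most 0.0687 FPKM in a WT liver, and *G6pc* (glucose release) was listed at 0 FPKM in both.

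**Figure D2:**
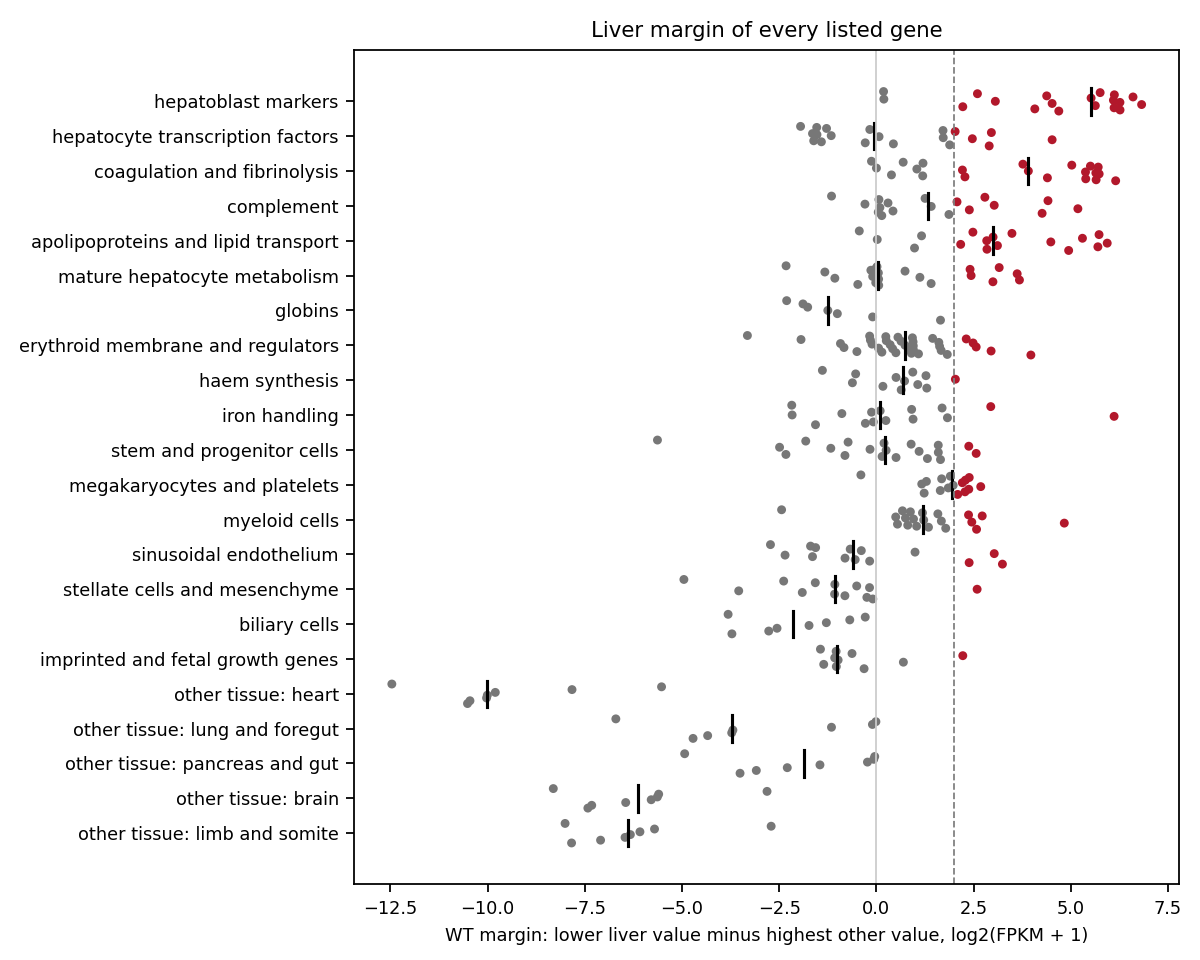
Margin of every listed gene in WT, in log2(FPKM + 1), with 1 row of points per list, red for liver-enriched genes, a black bar at the list's median and a dashed line at the threshold of 2. The hepatoblast markers centre at 5.52 and the heart markers at -10.02, and the globin and erythroid lists lie mostly left of the threshold.

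Blood genes made up a second part of the liver-enriched set. Of the 280 genes, 61 belonged to a hepatocyte list and 18 to a blood list, and 196 belonged to no list. The blood lists were the erythroid, haem synthesis, progenitor, megakaryocyte and myeloid lists, and the globins were counted apart from them. Over the 101 blood-list genes in the table, 24 passed the rule in ∆*Firre*, and over the 117 hepatocyte-list genes, 60. The blood lists had the smaller margins. Their median was 0.94, and that of the hepatocyte lists was 2.17.

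The globins were abundant in the liver, and in WT none of the 7 was liver-enriched. *Hbb-y*, *Hbb-bh1* and *Hba-x*, the embryonic globins of primitive red cells, stood at 11630.5, 3999 and 4428 FPKM in WT male liver and at 8203, 2899 and 3024 FPKM in WT female liver. All 3 were higher in WT male heart, at 27945, 8983 and 10852 FPKM. Of the 4 adult genes, *Hbb-bs* alone was highest in liver. It had 596 and 717 FPKM in male and female liver, against 84.1 FPKM in WT male heart and 189.5 FPKM in WT female PSM, its highest value elsewhere. Its margin was 1.65 in WT, under the threshold, and 2.71 in ∆*Firre*, where it was the 1 globin to pass the rule. The lower liver value of *Hbb-bs* was 596 FPKM in WT (male) and 642 FPKM in ∆*Firre* (female). Its highest value elsewhere was 189.5 FPKM in WT and 97.3 FPKM in ∆*Firre* (male lung), so the larger margin does not describe the liver alone. *Hbb-bt* had 916 and 978 FPKM in liver and 980.6 FPKM in WT female heart, a margin of -0.10, and *Hba-a1* and *Hba-a2* were likewise highest in WT female heart, with margins of -1.25 and -1.01.

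The balance between adult and embryonic β-type globins separated the liver from every other tissue. *Hbb-bs* and *Hbb-bt* together gave 8.82% of the summed FPKM of the 4 β-type genes in WT male liver and 13.2% in WT female liver. In the other 14 WT values the share ran from 2.05% (male heart) to 3.99% (female heart), with a median of 2.44%. In the ∆*Firre* livers it was 26.6% in males and 10.1% in females, and in the other ∆*Firre* tissues it did not exceed 2.9%. The 4 liver values did not overlap with any of the 28 others. On the α side, *Hba-a1* and *Hba-a2* held 41.7% and 47.7% of the α-type sum in WT male and female liver, and between 5.77% (male forelimb) and 34.6% (female forebrain) elsewhere. The adult β genes are near-identical, as are *Hba-a1* and *Hba-a2*, so the split within each pair is uncertain, and the sum of the pair was used here.

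**Figure D3:**
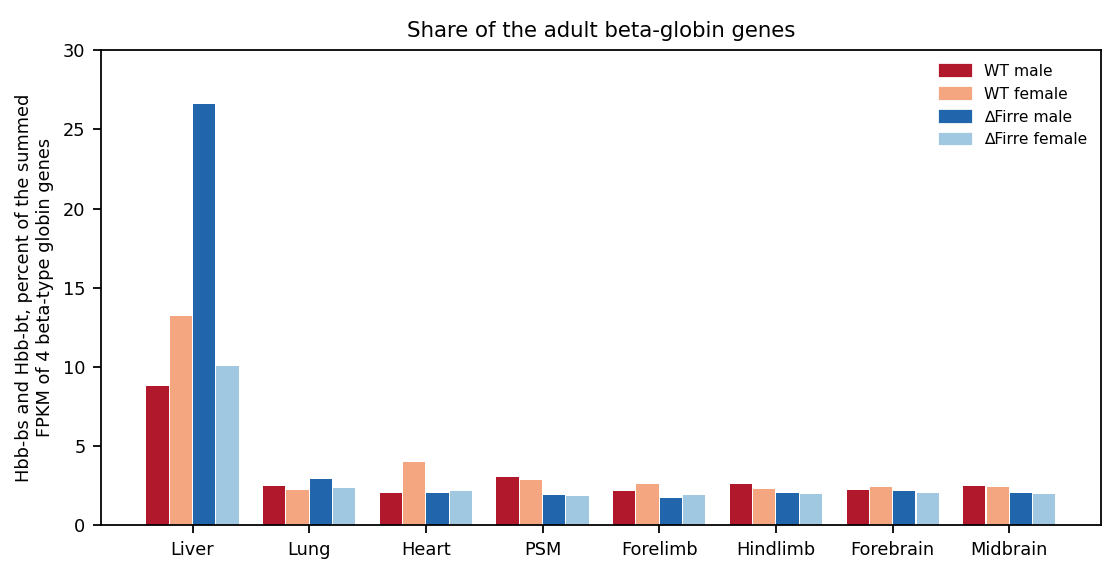
Share of *Hbb-bs* and *Hbb-bt* in the summed FPKM of the 4 β-type globin genes (percent), with 1 bar for each of the 32 group values. The liver bars run from 8.82% to 26.6%, and no other bar passes 3.99%.

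Erythroid genes covered a wide range when the liver was set against the heart, the next highest tissue for most of them. Of 35 listed genes, 6 lay at least 4-fold above the heart on the mean of log2(FPKM + 1), 14 between 2-fold and 4-fold, 12 above it by less than 2-fold and 3 below it. The largest differences were those of *Myb* (4.67), a factor of erythroid progenitors, and *Car1* (4.07), a carbonic anhydrase of definitive red cells. *Car1* had 16.6 and 16.6 FPKM in liver and 0.0281 and 0.0628 FPKM in male and female heart. The factor genes *Gfi1b*, *Gata1* and *Klf1* had differences of 3.18, 2.68 and 2.44, and with *Myb* and *Car1* they were the 5 liver-enriched genes of the list. *Gfi1b*, which restrains progenitor genes, had 61.3 and 70.3 FPKM in liver and 7.06 FPKM in WT female heart. *Klf1*, the activator of adult β-globin, had 127 and 128 FPKM in liver and 24.8 FPKM in WT female heart. At the other end, *Slc4a1* (band 3, an anion exchanger of the red cell membrane) was lower in liver, with 150.4 and 139.9 FPKM against 193 and 250.3 FPKM in male and female heart. The lowest was *Tmod1* (tropomodulin, which caps actin and is also a heart muscle protein), with a difference of -3.20. *Gata1*, *Klf1* and *Tmod1* were named after their values were seen. In ∆*Firre*, 9 of the 35 passed the enrichment rule, a count that depends on the other tissues as well as on the liver.

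Haem synthesis and iron handling genes were read in the same way. Of 12 haem synthesis genes, 9 had a margin above 0 and 1, *Cpox*, was liver-enriched, with 254 and 252 FPKM and a margin of 2.03. *Slc25a38*, a mitochondrial glycine carrier, and *Alad*, the second enzyme of the pathway, had margins of 1.30 and 1.27. The mitochondrial iron importer *Slc25a37* was higher in WT female heart (149 FPKM) than in male or female liver (103 and 114 FPKM). Of 15 iron genes, *Trf* and the sensor *Tfr2* (21.3 and 22.6 FPKM, margin 2.94) were liver-enriched, and the exporter *Slc40a1* (ferroportin) followed with a margin of 1.83. *Hamp*, the hormone hepcidin, was added after its value was seen and was listed at 0 FPKM in both WT livers.

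Progenitor, megakaryocyte and myeloid genes were counted next. In the list of stem and progenitor cells, 2 of 20 were liver-enriched, among them *Myb* (38.9 and 41.6 FPKM, margin 2.57). *Spi1*, which encodes PU.1, reached a margin of 1.65. *Cd34* was higher in WT male heart (40.0 FPKM) than in liver (22.6 and 22.4 FPKM). In megakaryocytes and platelets, 7 of 16 genes were liver-enriched and 9 passed in ∆*Firre*. *Pf4* (platelet factor 4) was the most abundant, at 307 and 356 FPKM against 46.9 FPKM in WT female lung, and *F2rl2* (a thrombin receptor) had a margin of 2.39. *Vwf*, which endothelium also makes, was at 8.72 and 9.31 FPKM in liver and 11.8 FPKM in WT female heart. Of 20 myeloid genes, 5 were liver-enriched, and 5 passed in ∆*Firre*. *Mpo*, *Prtn3* and *Elane* encode enzymes of the primary granules of neutrophil precursors. *Mpo* had 83.5 and 76.5 FPKM and a margin of 4.83, *Prtn3* 40.1 and 35.0 FPKM and a margin of 2.72, and *Elane* 6.5 and 5.53 FPKM and a margin of 2.58.

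Some granulocyte genes outside the fixed lists were liver-enriched and are named here as adjacent members or after their values were seen. *S100a8* and *S100a9*, the subunits of calprotectin, had 77.5 and 92 FPKM in male and 87.3 and 94.1 FPKM in female liver, with margins of 4.23 and 4.70. *Prg2*, a major protein of eosinophil granules, had 54.8 and 70.7 FPKM and the largest margin of any gene named here from the blood lineages (5.31), and its neighbour *Prg3* had a margin of 2.84. Genes of the stefin A family, protease inhibitors of myeloid cells, counted 6 in the enriched set and are near-identical in part, so that their separate values are uncertain.

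The lists of other liver cell types were counted next, where 1.76% of all genes above 1 FPKM were liver-enriched. In sinusoidal endothelium 3 of 14 were enriched, and the 3 passed in ∆*Firre*: the scavenger receptor *Stab2* (14.7 and 16.7 FPKM, margin 3.24), *Oit3* (margin 3.03) and *Lyve1*, a hyaluronan receptor (margin 2.38). Of 13 genes of stellate cells and mesenchyme, *Reln* (reelin, a secreted matrix protein) was enriched, with 56.3 and 50.3 FPKM and a margin of 2.59. *Hgf* had 4.13 and 4.42 FPKM in liver and 4.48 FPKM in WT male hindlimb. None of 8 biliary genes was enriched, and *Cdh1* was the most abundant in liver at 8.16 and 7.1 FPKM. Of 10 imprinted and fetal growth genes, *Dlk1* was enriched, at 933 and 727 FPKM with a margin of 2.22. It did not pass in ∆*Firre*, where its margin was 1.62. *H19* was abundant in liver (2419.6 and 2282 FPKM) but higher in WT male heart (4519 FPKM).

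Markers of neighbouring tissues were then counted. None of the 40 genes in the 5 lists for heart, lung and foregut, pancreas and gut, brain, and limb and somite was liver-enriched. Over all genes above 1 FPKM the share was 1.76%, and at so low a share, finding none among 40 does not set them apart. The median margins of the 5 lists ran from -10.02 for the heart list to -1.87 for pancreas and gut. Of the 8 limb and somite genes, 8 were under 1 FPKM in both WT livers, as were 7 of 8 brain, 7 of 8 pancreas and gut, 5 of 8 lung and foregut and 4 of 8 heart genes. The most abundant of the 40 in liver was *Id2*, a listed lung and foregut gene that many tissues express, at 82.6 and 86.1 FPKM against 185 FPKM in WT male heart, and it was chosen after its values were seen. Of the lung and foregut genes 2 (*Barx1* and *Nkx6-3*) had their highest WT value in liver, as had 1 of the pancreas and gut genes, at under 1 FPKM. The most abundant heart marker in liver was *Myl7*, an atrial myosin light chain, at 17.0 and 26.9 FPKM against 4087 FPKM in WT male heart. *Barx1*, a regulator of foregut mesenchyme, was at 6.1 and 5.24 FPKM in liver and 5.7 FPKM in WT male lung.

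Few genes had the opposite pattern. In 6 genes (0.0377%) each of the 14 other WT values lay at least 4-fold above the higher liver value, and 5 genes (0.0314%) did so in ∆*Firre*. *Col2a1*, the collagen of cartilage, had 1.16 and 1.64 FPKM in male and female WT liver and between 17.2 (female PSM) and 77.8 FPKM (male hindlimb) in the others. *Hmgn3*, a nucleosome-binding protein, had 4.01 and 3.96 FPKM and at least 23.4 FPKM elsewhere. *Lef1*, a nuclear effector of Wnt signalling, had 0.367 and 0.395 FPKM in liver and 69.3 FPKM in WT female PSM. *Ntn1* (netrin-1, an axon guidance cue), *Bcat1* (a transaminase of branched-chain amino acids) and *Sparcl1* (a matrix protein) completed the group. *Sparcl1* did not pass in ∆*Firre*, where the separation was 1.41 instead of 2.05.

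The tissue with the highest value outside the liver was then counted. For 153 of the 280 genes the highest other value was in lung, for 64 in heart, for 28 in PSM, for 14 in forelimb, for 10 in midbrain, for 8 in forebrain and for 3 in hindlimb. WT male lung alone was next highest for 114. Among the 61 enriched genes of the hepatocyte lists it was lung in 46, and among the 18 of the blood lists it was heart in 9 and lung in 6. *Apoe* (apolipoprotein E), which macrophages and other cells also make, had the highest value outside the liver of all 280 genes, 196 FPKM in WT female heart, against 989.7 and 886 FPKM in liver.

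The hepatocyte genes in lung were read by sex. Expressed as a percentage of the mean WT liver value, the 61 genes had a median of 1.4% in WT male lung, with an interquartile range from 1.01% to 3.07%. In WT female lung the median was 0.206%, and 57 of the 61 genes were higher in the male than in the female group. *Alb* was at 16.2 FPKM in WT male and 0.473 FPKM in WT female lung, and *Afp* at 68.6 and 3.4 FPKM. The summed FPKM of the 4 hepatocyte markers was 85.9 in WT male lung and 3.93 in WT female lung, and it did not exceed 2.01 (female PSM) in the WT tissues other than liver and lung. In ∆*Firre* lung both sexes were nearer to the WT male than to the WT female value, with *Alb* at 28.2 FPKM in males and 12.4 FPKM in females and *Afp* at 73.4 and 52.3 FPKM. Outside liver and lung, the marker sum in ∆*Firre* was highest in male PSM, at 22.2 FPKM, most of it *Afp* (21.9 FPKM). It did not exceed 1.26 (male hindlimb) in the rest. In ∆*Firre* male PSM the hepatocyte genes had a median of 0.48% of the ∆*Firre* liver value, above that of WT female lung. In the WT tissues other than lung, the median percentage of the hepatocyte genes was between 0.058% (male hindlimb) and 0.159% (female heart). The 18 blood genes stood at medians between 2.995% (female midbrain) and 10.4% (female heart) in the other WT tissues, and 14 of the 18 were higher in female than in male WT lung, whereas in ∆*Firre* 16 of the 18 were higher in male lung. Of the 61 hepatocyte genes, 56 were higher in male than in female ∆*Firre* lung. Lung libraries were made from 200 ng of total RNA and those of PSM from 80 ng, against 500 ng in the other tissues. Whether liver cells or RNA were carried into lung samples was not tested, and without the lung values 297 genes passed the rule.

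**Figure D4:**
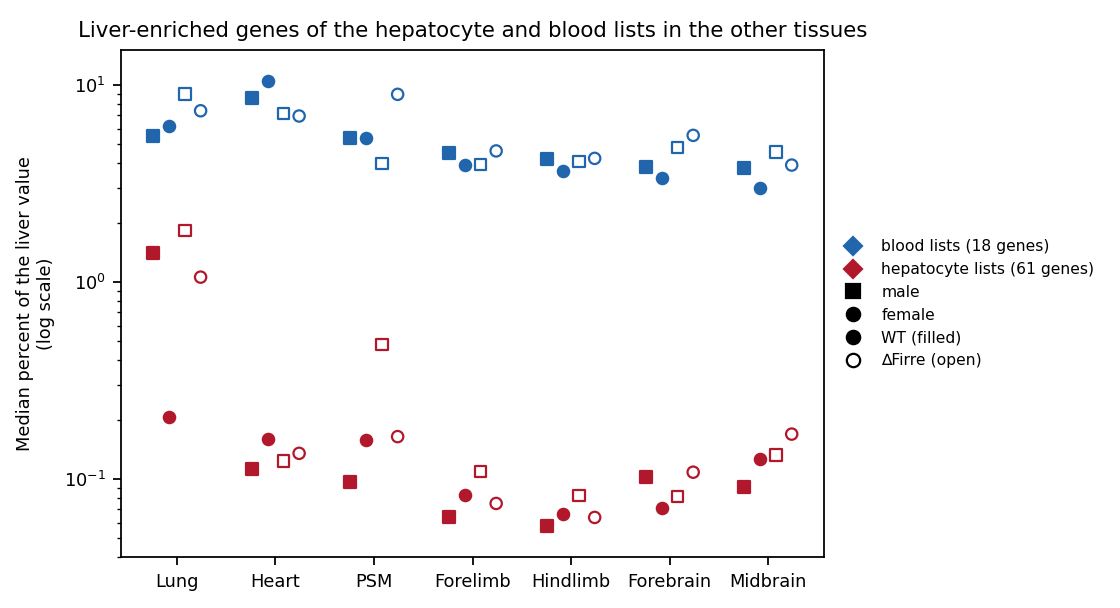
Median over genes of the level in each other tissue as a percent of the liver level of the same genotype (log axis), for the enriched genes of the hepatocyte lists (red) and the blood lists (blue); filled points are WT, open points ∆*Firre*. The hepatocyte genes reach 1.4% in WT male lung and 0.206% in WT female lung, and the blood genes peak at 10.4% in WT female heart.

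The liver pattern was then examined in the ∆*Firre* embryos, whose values had not entered the choice of genes. *Firre* itself was at 13.9 and 16.5 FPKM in male and female WT liver and at no more than 0.0703 FPKM in any of the 16 ∆*Firre* values. Of the 280 genes, 251 (89.6%) passed the same rule in ∆*Firre*, where 278 of all genes (1.75%) passed. The 251 were 90.3% of those 278. The remaining 29 had WT margins of at most 2.41 and ∆*Firre* margins of at least 1.53, so that each of the 280 genes was still more than 2-fold above every other tissue. The median margin was 2.72 in ∆*Firre* and 2.78 in WT. Close to the threshold in WT, *Gmfg* (2.015), *Khk* (2.013) and *Sigirr* (2.002) lay just inside, and *Prkcq* (1.998), *Taok3* (1.995) and *Slc25a21* (1.987) just outside.

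**Figure D5:**
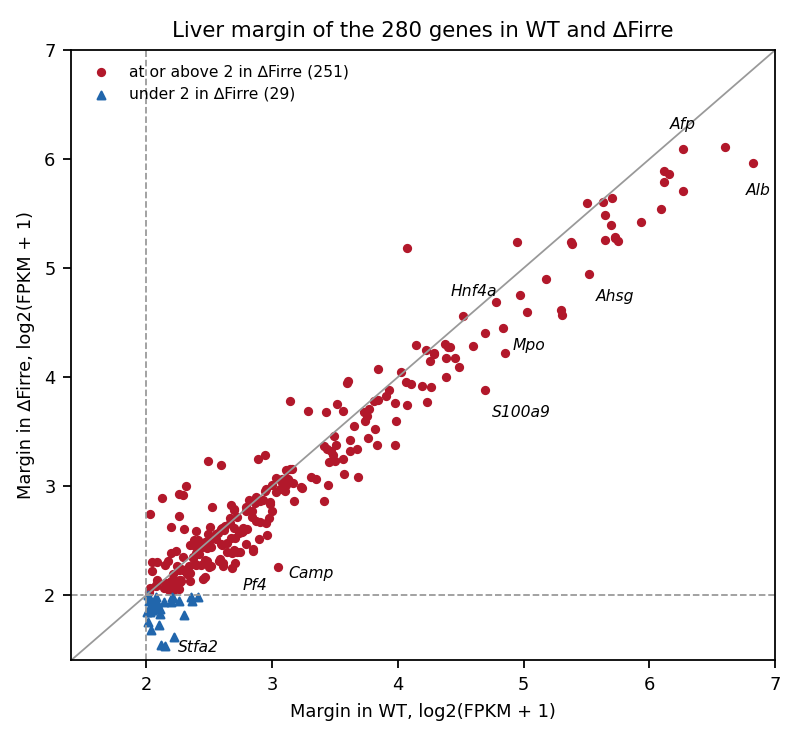
Liver margin of the 280 genes in WT (x axis, which chose them) and in ∆*Firre* (y axis), both in log2(FPKM + 1), with dashed lines at the threshold of 2 and a solid line of equality. Red points (251) passed in both genotypes, and the 29 blue triangles lay below the threshold in ∆*Firre*, none of them with a WT margin above 2.41.

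No liver-enriched gene passed the threshold between male and female WT liver, both of which had to be high to meet the rule. At a threshold of 1.5-fold on log2(FPKM + 1), 0 of the 280 differed. Of 12796 genes above 1 FPKM in a WT liver, 50 (0.391%) were higher in females and 14 (0.109%) in males. At shares this low, a count of 0 among 280 genes does not set the members apart. The female minus male difference ran from -0.52 for *Pnliprp1*, a pancreatic lipase relative (19.5 FPKM in males, 13.3 in females), to 0.56 for *Ear6*, an eosinophil ribonuclease (7.45 and 11.48 FPKM). Its median was -0.00487, and 0.0186 over all genes.

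Between genotypes, no liver-enriched gene moved at least 1.5-fold the same way in both sexes, where 2 of 12915 genes (0.0155%) did. At so low a share, finding none among 280 genes does not set them apart. The WT liver values that chose the 280 genes are also the baseline of the genotype differences. Shares and medians of the members, here and below, are therefore not strictly comparable with those over all genes. Within males, 6 of the 280 genes (2.14%) were at least 1.5-fold higher in ∆*Firre* liver and 0 were lower, against 0.325% and 0.0929% of all genes. Within females, 0 were higher and 6 (2.14%) lower, against 0.0852% and 0.217% of all genes. These were 9 genes in all, and each of the 9 lay on opposite sides of WT in the sexes. Among the 9, whose names were seen after their values, 7 are known from neutrophils or other myeloid cells: *Ngp*, *Lcn2*, *Camp*, *S100a8*, *S100a9*, *Stfa2* and *Stfa3*. How many of the 280 genes are known from these cells was not counted. *Ngp* (neutrophilic granule protein) had 7.69 FPKM in WT and 13.5 in ∆*Firre* males, but 8.61 FPKM in WT and 3.65 in ∆*Firre* females, differences of 0.74 and -1.05. *Lcn2* (lipocalin 2, a secondary granule protein) stood at 6.46 FPKM in WT males against 10.4 in ∆*Firre* males, and at 7.19 FPKM in WT females against 3.49 in ∆*Firre* females. *Stfa2* had 4.13 and 7.16 FPKM in WT and ∆*Firre* males and 4.96 and 2.12 FPKM in WT and ∆*Firre* females. Thus *Ngp*, *Lcn2* and *Stfa2* passed in both sexes, in opposite directions.

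The other 6 genes passed in a single sex. *Stfa3* (0.59), *Btnl10* (0.71) and *Pdia2* (0.76) were higher in ∆*Firre* males, and *Pdia2*, a protein disulfide isomerase, had the largest male difference, from 15.7 to 27.2 FPKM. *S100a8* (-0.63), *S100a9* (-0.61) and *Camp* (-0.78), which encodes the granule peptide cathelicidin, were lower in ∆*Firre* females. In female liver *S100a9* was at 94.1 FPKM in WT and 61.5 FPKM in ∆*Firre*, and in male liver at 92 and 132 FPKM. The lowest male difference was that of the primary granule gene *Mpo* (-0.34), which stayed under the threshold, as did its female difference (-0.32). The primary granule genes *Prtn3* (-0.28 in males, -0.39 in females) and *Elane* (-0.29 and -0.18) were likewise lower in both sexes, under the threshold. Myeloid genes thus did not share 1 direction in ∆*Firre* males. The median difference of the 280 genes was 0.0645 in males (-0.00226 over all genes) and -0.0944 in females (-0.00423 over all genes). Over all 280 genes, 161 were higher in ∆*Firre* males and lower in ∆*Firre* females, 37 had the reverse and 82 the same direction, and opposite directions made up 70.7%, against 62.2% of all genes. *Lcn2*, *Camp* and *Btnl10* were named after their values were seen. The adult β-globin share was likewise higher in ∆*Firre* than in WT male liver and lower in ∆*Firre* than in WT female liver, and its part in the result was not tested.

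Several liver-enriched genes lay next to each other in the genome. Among the 269 protein-coding members placed on GRCm38.p6, 51 fell in 21 runs of adjacent protein-coding genes. How many would do so in a set of other genes of the same size was not counted. The number therefore describes the positions only and does not show clustering. The longest held 5 genes, *Serpina1a* to *Serpina1e*, on chromosome 12 from 103728156 to 103956897, with male liver values from 5.86 FPKM (*Serpina1c*) to 326 FPKM (*Serpina1b*). *Alb*, *Afp* and *Afm* (afamin), genes of 1 family, adjoined on chromosome 5 from 90460870 to 90553544, and although neighbours they ranged from 9.89 FPKM (*Afm*) to 5353 FPKM (*Afp*) in male liver. The fibrinogen genes filled a run on chromosome 3 from 83007724 to 83049863. *Itih1*, *Itih3* and *Itih4*, which encode chains of inter-alpha-trypsin inhibitor, had margins of 3.65, 4.38 and 2.11, and the clotting factor genes *F7*, *F10* and *Proz* margins of 2.28, 3.77 and 2.90. *Akr1c12*, *Akr1c13* and *Akr1c19* (aldo-keto reductases) and *Bhmt*, *Bhmt2* and *Dmgdh* (enzymes of betaine and choline breakdown) formed the other runs of 3 genes, with margins from 2.21 (*Dmgdh*) to 3.62 (*Bhmt*). Pairs included *Ppbp* and *Pf4* of platelets, *Prtn3* and *Elane* of neutrophils, *Apoc1* and *Apoe*, and *Cfb* and *C2* of complement.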

How the data were processed

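Poly(A)+ RNA of 8 tissues from E11.5 embryos on a C57BL/6J background had been sequenced in 96 libraries, 3 per tissue, sex and genotype, with 10 PCR cycles. Per the labels and the study's methods, the authors mapped reads to mm10 with TopHat2 2.1.1 and Bowtie2 2.2.8 and computed FPKM against a GENCODE annotation with Cuffdiff 2.2.1. The deposited table holds 1 FPKM value for each of 32 groups. Its 16 columns that merge the sexes were not used. With no value per library, depth and replicate error are unknown and no statistical test was run.

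Values were compared as log2(FPKM + 1) in Python 3.11.15 with pandas 2.3.3, NumPy 2.4.6 and Matplotlib 3.10.9; the pseudocount understates differences of low genes. The rule was tested on simulated data. Shares of all genes refer to 15922 genes above 1 FPKM in any group for enrichment, 12796 in a WT liver for the sexes and 12915 in a liver for the genotypes. The members, the 22 gene lists and the thresholds were chosen with earlier results of these data known. Named genes were taken from the 3 largest margins and the most abundant gene with a negative margin in each list, the 4 markers, the 15 largest margins, the globins, genes next to the threshold, 5 liver-low genes, the extremes between sexes and genotypes, and adjacent members; others are marked in the text. *Ahsp*, 1 listed gene, was not matched in the table, and for 48 repeated symbols the identifier with the highest mean was used. RefSeq (GRCm38.p6) placed 274 of the 280 genes. Whether counting used strand is not given in the sources used here. Alternatives covered the pseudocount, fold thresholds, scaling, a filter of 10 FPKM, sex and each other tissue left out. Values of some genes that met these criteria are not reported here.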

Additional observations from a re-analysis of the deposited data

Results flagged for a closer look

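Differences between ∆*Firre* and WT liver pointed in opposite directions in males and females for 6 summary values. Opposite directions also held for 62.2% of all genes above 1 FPKM in a liver, so direction alone does not set these values apart. None of these differences between the sexes was tested, since each group has a single value. In females, genotype also cannot be told apart from the cross that gave the embryos. The share of summed FPKM held by the 280 liver-enriched genes was 0.268 percentage points higher in ∆*Firre* than in WT males and -0.214 in females, a gap of -0.482 for females minus males. The share of *Hbb-bs* and *Hbb-bt* among the β-type globins differed by 17.8 percentage points in males and -3.16 in females, a gap of -20.96. In log2(FPKM + 1), the ∆*Firre* minus WT difference of *Alb* was 0.38 in males and -0.21 in females (gap -0.59), that of *Afp* 0.08 and -0.10 (gap -0.18), and that of *Ahsg* 0.52 and -0.10 (gap -0.62). *Hnf4a* had the reverse order, with -0.17 in males and 0.02 in females (gap 0.19).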

How the results depend on the processing

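No paired analysis was possible because the table holds 1 value per group, and for the same reason no replicate was left out in turn. The count of 280 liver-enriched genes, 251 of them passing in ∆*Firre*, became 491 and 444 with a pseudocount of 0.1 FPKM, 694 and 638 at 2-fold, and 114 and 105 at 8-fold. Both counts stayed within 1.5-fold of these values under the 13 other alternatives. Among the tissues left out in turn, the heart gave the largest change, to 355 and 319, and the lung gave 297 and 272. Leaving out a tissue can only add genes by construction. Median-of-ratios scaling, which moved the median of all genes by -0.07 to 0.21 (log2) across groups, kept 271, and rescaling without globins, which moved it by -0.16 to 0.12, kept 255.

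The 6 liver-low genes became 34 with the lower pseudocount, 150 at 2-fold, 0 at 8-fold, 10 in males alone, 28 without the heart and 11 without the lung; a weaker threshold or fewer tissues admit more genes by construction. Members differing between the sexes went from 0 to 1 with the lower pseudocount and to 21 at 1.2-fold (12 higher in females, 9 in males), and members differing between genotypes in both sexes from 0 to 3 at 1.2-fold, all lower in ∆*Firre*. Without library values, no count could be set against replicate error.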
